A study of Mus musculus with 17 samples.

Results

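The interaction of 2 mutations in mouse blood progenitors is described here: deletion on 1 allele of the URE, the upstream regulatory element that serves Spi1, and loss of both copies of Tet2. Its members are the 12 libraries, of 17 in the series, whose genotypes make up the contrast, and they were taken by the genotype that the labels give. There were 3 libraries without either mutation (URE+/+;Tet2+/+, here WT), 3 with the deletion alone (UREΔ/+;Tet2+/+, here URE het), 3 with Tet2 loss alone (URE+/+;Tet2-/-, here Tet2 KO) and 3 with both (UREΔ/+;Tet2-/-, here the compound mutant). The first 3 groups were labelled Normal and the compound mutant was labelled acute myeloid leukaemia (AML), so the compound genotype and the disease cannot be told apart. All libraries held polyadenylated RNA of bone marrow cells sorted for the cKit receptor and against lymphoid and erythroid surface markers. The labels give no strain and no age beyond age-matched controls, and do not say which part of Tet2 is lost or in which cells. They also do not say that each library came from a mouse of its own, so p-values measure the spread between these libraries. Read from Xist and Y-linked RNA, sex was uneven over the groups: every URE het library was male, and compound replicates 1 and 3 were female. Compound replicate 2 had neither RNA, so its sex could not be read.

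Spi1 encodes PU.1, a transcription factor that myeloid and lymphoid cells need to develop, and the URE is a distant enhancer that raises its transcription. Tet2 is an enzyme that oxidises methylated cytosine in DNA, and its loss is a frequent early lesion in clonal haematopoiesis and myeloid leukaemia. An interaction asks whether a gene in the compound mutant stands where the changes of the single mutants, added on the log2 scale, would put it; a positive interaction value means that the gene stood above that sum and a negative value that it stood below.

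The sorting marker was present throughout: Kit, which encodes the cKit receptor, ran from 117 to 187 CPM (counts scaled to a fixed library total) in the 12 libraries, and its interaction value was -0.49 ± 0.29 on the log2 scale (SE; edgeR adjusted p = 0.716). The T cell gene Cd3e, which the sort against lymphoid cells should keep low, reached 2.93 CPM in compound replicate 3 and was at 0 in the other compound libraries. In bulk libraries such as these, fewer cells of a type and less RNA per cell cannot be told apart.

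Neither targeted gene departed from the sum of the single mutants beyond the spread. Spi1 (chromosome 2, 91082390 to 91115756, GRCm38) was at 106, 122 and 55.8 CPM in WT, 90.9, 53.9 and 45.3 in URE het and 137, 63.1 and 52.2 in Tet2 KO. In the compound mutant it was at 98.6, 7.83 and 12.2 CPM. Compound replicates 2 and 3 lay below all 9 other libraries and replicate 1 lay among them. The interaction value of Spi1 was -0.51 ± 1.02 (edgeR adjusted p = 0.953); it was -2.35 among the libraries whose titles are numbered 8 to 17 (adjusted p = 0.0139), which hold compound replicates 2 and 3, and turned to 0.03 without Tet2 KO replicate 1. Tet2 (chromosome 3, 133463679 to 133545139) was at 133, 108 and 117 CPM in WT, 129, 130 and 176 in URE het, 80.2, 81.0 and 86.3 in Tet2 KO and 112, 113 and 176 in the compound mutant. All 3 Tet2 KO libraries lay below the other 9, and the compound libraries overlapped WT and URE het. Its interaction value was 0.41 ± 0.32 (edgeR adjusted p = 0.8). As the lost part of Tet2 is not stated, its RNA level does not check the genotype.

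Across 19951 tested genes, 0 (0%) passed the interaction test at an adjusted p under 0.05 in edgeR's quasi-likelihood test with Benjamini-Hochberg adjustment; the smallest adjusted p was 0.17. At an unadjusted p under 0.05 there were 837 positive genes (4.2%) and 781 negative genes (3.91%). Other tools did call genes: 151 with DESeq2, 78 positive and 73 negative, and 1782 with limma voom and quality weights, 767 positive and 1015 negative. Those weights set compound replicate 1 at 0.241 against 0.961 and 1.73 for replicates 2 and 3. Leaving compound replicate 1 out of edgeR gave 279 calls, 105 positive and 174 negative, and leaving out any other of the 12 libraries gave 0. The 4 groups alone gave 32 calls, 5 positive and 27 negative.

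**Figure D1:**
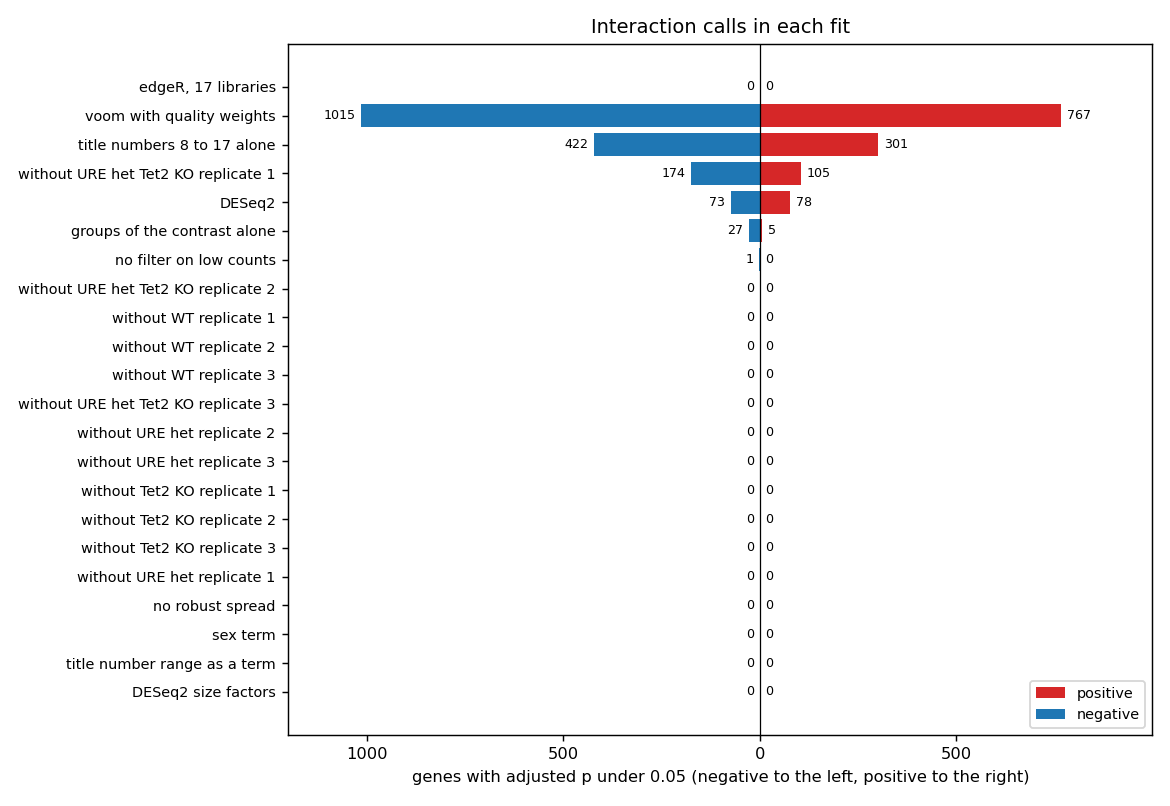
Number of genes with an adjusted p under 0.05 for the interaction in each fit (horizontal axis, negative values drawn to the left and positive to the right), 1 bar a fit. The fit of all 17 libraries in edgeR is at 0, as are all fits without 1 library other than compound replicate 1 (279), while voom with quality weights (1782) and the libraries numbered 8 to 17 alone (723) call the most.

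Because none passed, genes are described that had the smallest unadjusted p in each direction, 12 positive and 12 negative, leaving out genes whose mean was under 1 log2 CPM. All of them failed the adjusted test of the interaction in the edgeR fit of all libraries, and their choice by that contrast favours the counts given for them, which are descriptions. Every one of the 3 compound libraries stood above the sum for all 12 positive genes and below it for all 12 negative genes. The sign held in all 21 alternatives for all 24, while the number that passed ran to 24 with DESeq2, 22 with voom and 16 without compound replicate 1. It was 0 in most alternatives. These were DESeq2 size factors, no robust spread, a term for title range or for sex, and leaving out any other library of the 4 groups. All 3 compound libraries lay above all 9 others for 7 of the 12 positive genes, against 710 (3.56%) of all genes, and below all 9 for all 12 negative genes, against 967 (4.85%) of all genes. Against WT itself the compound mutant passed in edgeR for 19 of the 24 genes, against 676 (3.39%) of all genes, of which 263 (1.32%) were higher and 413 (2.07%) lower, and against Tet2 KO for 18, against 195 (0.977%). Against URE het 71 genes (0.356%) passed. Each single mutant against WT gave 0 calls.

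Those calls against WT rest on few libraries. Without compound replicate 2 they numbered 19 in all and 3 of the 24, without compound replicate 3 they numbered 40 and 5, and without WT replicates 1, 2 or 3 they numbered 100, 16 or 128 in all and 10, 4 or 8 of the 24. Without compound replicate 1 they numbered 2521 and 20. Of all genes, 1421 were then lower and 1100 higher. There were 84, 15 or 100 lower and 16, 1 or 28 higher genes without WT replicates 1, 2 or 3. There were 16 or 30 lower and 3 or 10 higher genes without compound replicates 2 or 3. These fits tested 19790 to 19868 genes. Below, "rose" and "fell" are used of the compound mutant against WT in edgeR on all 17 libraries.

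**Figure D2:**
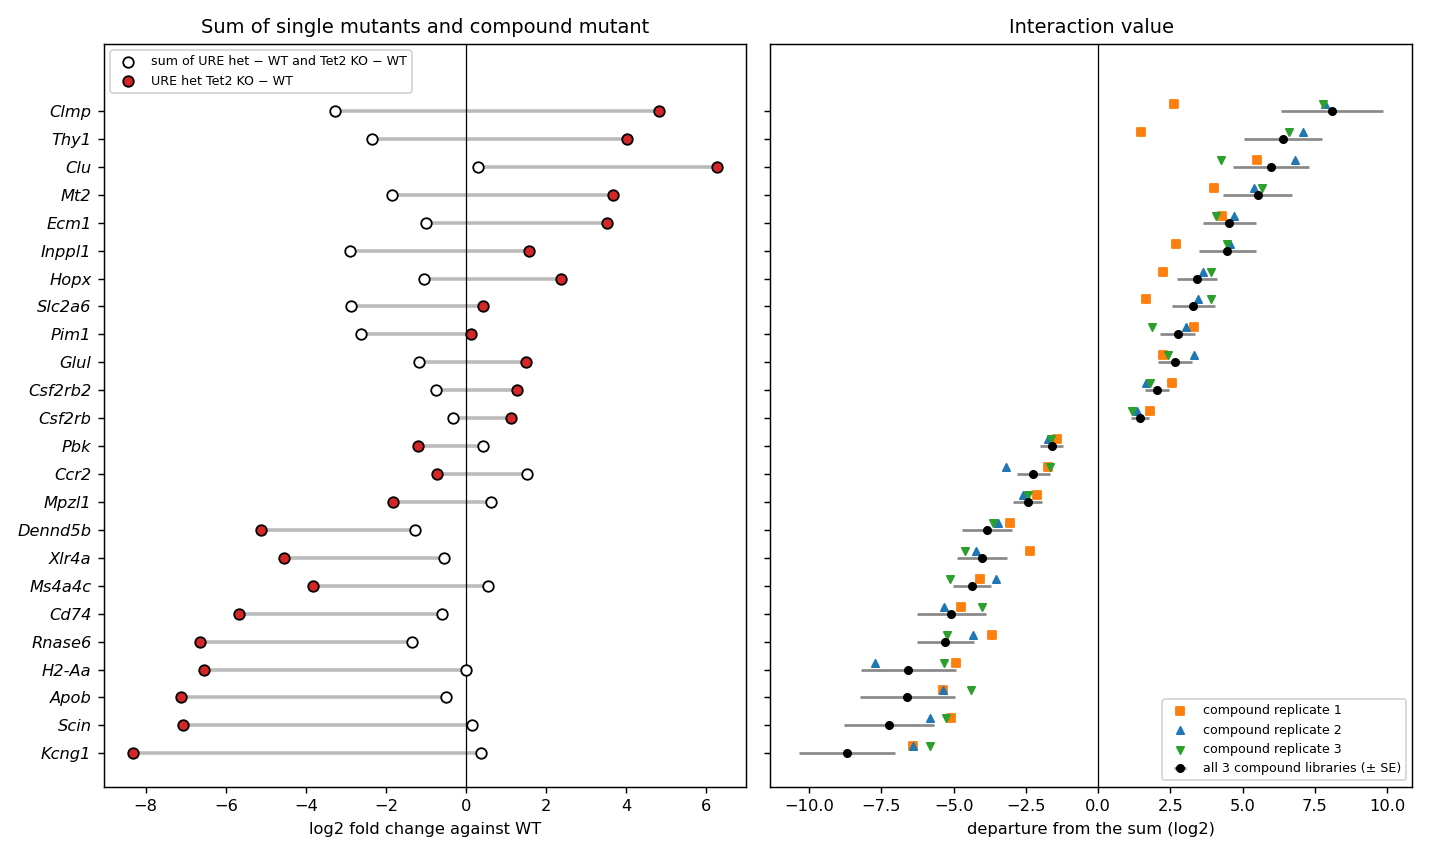
Left, log2 fold change against WT (horizontal axis) of each of 24 genes: open circles give the sum of both single mutants and filled circles the compound mutant. Right, departure of the compound mutant from that sum in log2 units, as the fitted interaction value ± SE (black) and for each compound library (coloured, with a prior count of 2 that pulls the rarest genes towards 0); the 12 upper genes lie to the right of 0 and the 12 lower genes to the left in every library.

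Among the positive genes were both beta chains of the receptors for interleukin-3 and related cytokines, which carry growth signals into myeloid progenitors. Csf2rb, the beta chain shared by the receptors for interleukin-3, interleukin-5 and GM-CSF (chromosome 15, 78325752 to 78353847), was at 137, 149 and 141 CPM in WT, 142, 141 and 113 in URE het and 138, 114 and 115 in Tet2 KO. In the compound mutant it was at 391, 290 and 252 CPM, above all 9 others. It rose 2.19-fold against WT (edgeR adjusted p = 0.0206), where the sum of the single mutants gave 113 CPM, and its interaction value was 1.45 ± 0.31 (adjusted p = 0.293). Csf2rb2, the beta chain that serves interleukin-3 alone (chromosome 15, 78282507 to 78305721), was at 26.8, 24.1 and 22.1 CPM in WT, 19.6, 16.2 and 14.3 in URE het, 26.2, 16.8 and 20.1 in Tet2 KO and 82.7, 44.2 and 49.8 in the compound mutant. It rose 2.42-fold (edgeR adjusted p = 0.0312), and its interaction value was 2.03 ± 0.41 (adjusted p = 0.293). Both genes were thus slightly low or level in each single mutant and high in all 3 compound libraries. Their sequences are closely alike and lie side by side, so reads may have been shared between them.

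The promoters of Csf2rb2 and of Ms4a4c, a membrane protein gene, are shown. Csf2rb2 was chosen after the search as the 1 positive gene of the 12 found to hold the motif below, and Ms4a4c as the gene of smallest p. Each run covers 250 bases before to 50 bases after the transcription start, 5′ to 3′ on the gene's strand, from RefSeq (GRCm38.p6), at chr15:78305672-78305971 on the minus strand and chr19:11407411-11407710 on the plus strand. Capitals mark a match to GAGGAAGT, a core motif of PU.1, read on either strand.
Csf2rb2: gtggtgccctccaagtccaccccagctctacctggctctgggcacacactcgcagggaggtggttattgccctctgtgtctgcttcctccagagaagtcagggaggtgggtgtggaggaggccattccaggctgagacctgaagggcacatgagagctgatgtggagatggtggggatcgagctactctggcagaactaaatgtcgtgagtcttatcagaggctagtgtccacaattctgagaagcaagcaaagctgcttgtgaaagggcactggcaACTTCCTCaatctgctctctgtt
Ms4a4c: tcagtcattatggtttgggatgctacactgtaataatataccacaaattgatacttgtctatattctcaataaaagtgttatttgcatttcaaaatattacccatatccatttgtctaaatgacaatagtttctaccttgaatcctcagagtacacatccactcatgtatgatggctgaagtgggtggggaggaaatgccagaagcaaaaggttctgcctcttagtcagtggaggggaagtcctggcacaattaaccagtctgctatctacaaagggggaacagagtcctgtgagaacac
The Csf2rb2 run holds 1 match, on the reverse strand as ACTTCCTC, at bases 278 to 285, and the Ms4a4c run holds 0. Of the tested genes, 11624 matched a promoter by symbol and 461 of them (3.97%) held a match. Among the named genes it was 1 of the 8 positive genes matched and 0 of the 9 negative genes matched, counts too small to compare. The match is a run of letters and was not tested as a binding site.

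**Figure D3:**
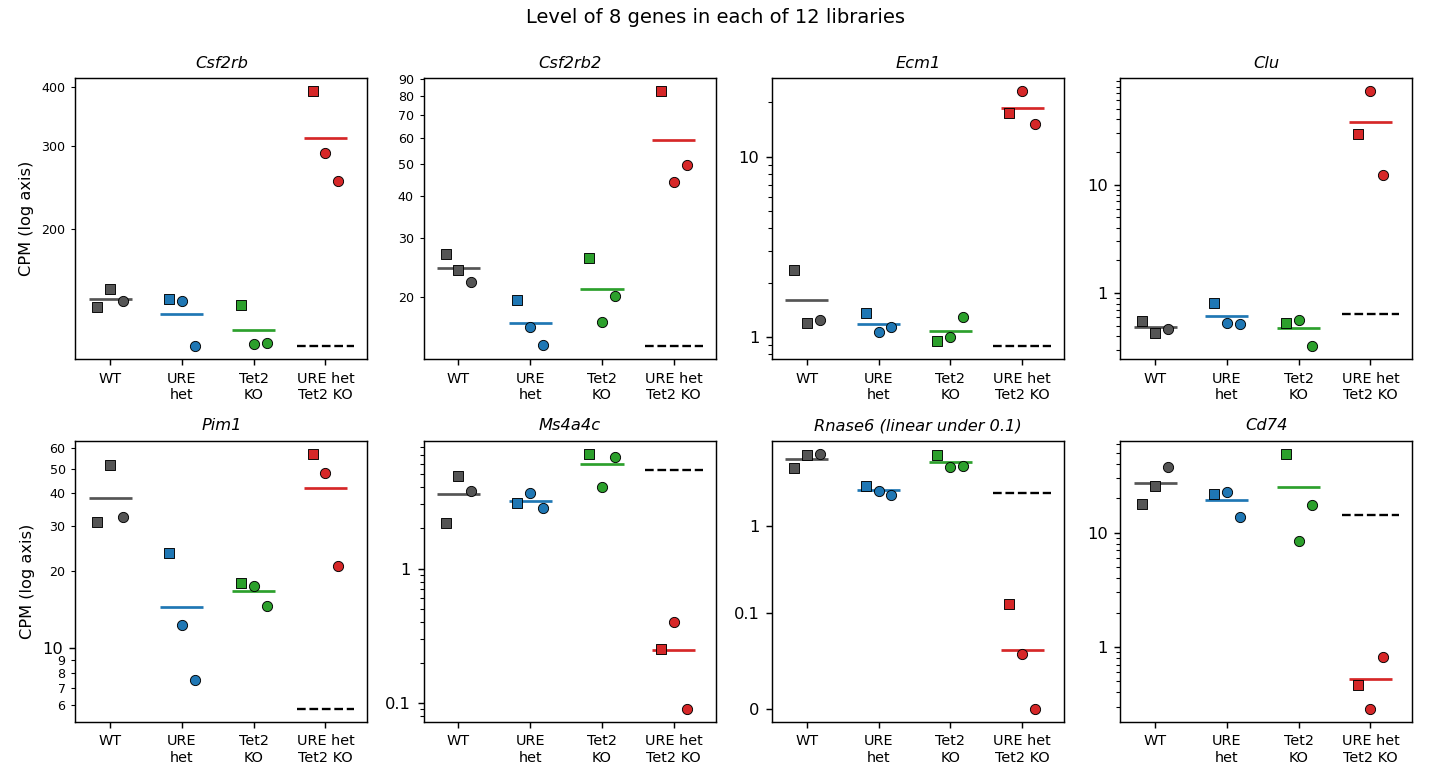
Level of 8 genes in CPM (vertical log axes; the axis of Rnase6 is linear under 0.1 so that a library at 0 can be drawn) in each of the 12 libraries, with squares for libraries numbered 1 to 7 in their titles, circles for 8 to 17, coloured lines for group means and a dashed line for the level the sum of single mutants gives. Compound libraries lie above all others for Csf2rb, Csf2rb2, Ecm1 and Clu, far below the dashed line for Ms4a4c, Rnase6 and Cd74, and within the WT range or near it for Pim1.

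Secreted and matrix genes gave the clearest rises from near silence. Ecm1, a glycoprotein of the extracellular matrix (chromosome 3, 95734147 to 95739569), ran from 0.955 to 2.35 CPM in the 9 other libraries and was at 17.5, 23.1 and 15.1 CPM in the compound mutant. It rose 11.6-fold against WT (edgeR adjusted p = 0.0205), and its interaction value was 4.53 ± 0.92. Clu, the secreted chaperone clusterin (chromosome 14, 65968483 to 65981547), ran from 0.324 to 0.806 CPM in the other 9 and was at 29.1, 72.5 and 12.2 in the compound mutant, a rise of 77.4-fold (edgeR adjusted p = 0.0167). For both genes even the lowest compound library stood several times above the highest of the others. Mt2, a metallothionein that binds zinc and copper (chromosome 8, 94172664 to 94173568), was at most 0.892 CPM in the other 9 libraries and at 3.0, 7.91 and 9.65 in the compound mutant, a rise of 12.7-fold (edgeR adjusted p = 0.0311). Hopx, a small homeodomain protein that does not bind DNA (chromosome 5, 77086988 to 77115121), was at 3.27, 4.86 and 2.93 CPM in WT, 4.07, 4.32 and 1.99 in URE het, 1.87, 2.16 and 1.65 in Tet2 KO and 8.33, 22.0 and 26.7 in the compound mutant. It rose 5.15-fold (edgeR adjusted p = 0.0257). Glul, glutamine synthetase (chromosome 1, 153899944 to 153909723), was higher in all 3 compound libraries (105, 219 and 119 CPM) than in any other library (24.1 to 57.2), and its difference from WT, 2.82-fold, did not pass (edgeR adjusted p = 0.059).

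Thy1 and Clmp departed mainly in compound replicates 2 and 3. Thy1, a membrane-anchored protein found on T cells, neurons and some blood progenitors (chromosome 9, 44043384 to 44048579), was at 0.972, 49.7 and 36.2 CPM in the compound libraries and between 0.491 and 2.03 in the other 9. Clmp, an adhesion molecule of cell junctions (chromosome 9, 40685962 to 40785319), was at 0.465, 19.9 and 18.5 CPM in the compound libraries and between 0.0665 and 0.769 in the others. For both, compound replicate 1 lay among the other genotypes; with the single mutants low, it still stood above the sum, with departures of 1.49 for Thy1 and 2.62 for Clmp against 6.61 to 7.86 in replicates 2 and 3.

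A further pattern among the positive genes was a low level in both single mutants with a compound level at or above that of WT. Pim1, a kinase that cytokine receptors induce (chromosome 17, 29490753 to 29496112), was at 30.9, 51.8 and 32.4 CPM in WT, 23.4, 12.3 and 7.56 in URE het, 17.9, 17.5 and 14.6 in Tet2 KO and 57.0, 48.0 and 20.9 in the compound mutant. Every library of either single mutant lay below every WT library; neither difference passed (log2 fold changes -1.41 ± 0.42 and -1.2 ± 0.42). The single mutants summed to 5.81 CPM and gave an interaction value of 2.75 ± 0.60, while the compound mutant itself was close to WT (1.09-fold, edgeR adjusted p = 0.9). Slc2a6, a member of the glucose transporter family (chromosome 2, 27021363 to 27027998), was likewise lower on average in both single mutants, with mean levels of 8.03 ± 3.65 (SD, n = 3) for WT, 3.37 ± 0.962 for URE het, 2.59 ± 1.10 for Tet2 KO and 10.7 ± 6.70 CPM for the compound mutant. Its interaction value was 3.29 ± 0.75. Inppl1, a phosphatase of inositol lipids (chromosome 7, 101822632 to 101838229), averaged 3.35 ± 2.36 CPM in WT, 1.09 ± 0.296 in URE het, 1.36 ± 0.302 in Tet2 KO and 9.92 ± 5.44 in the compound mutant, with WT replicate 2 (1.05 CPM) among the single mutants; its difference between compound and WT did not pass (2.96-fold, edgeR adjusted p = 0.213). On the CPM scale the sum of the single mutants fell under 0 for these 3 genes, and for Thy1 and Clmp, so a sum of levels has no meaning there. Myc, the growth-promoting transcription factor, was also lower on average in both single mutants: 175 ± 4.99 CPM in WT, 94.5 ± 24 in URE het, 129 ± 32.6 in Tet2 KO and 177 ± 56.3 in the compound mutant, with an interaction value of 1.34 ± 0.39.

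The negative genes were mostly near WT in both single mutants and nearly silent in the compound mutant. Ms4a4c (chromosome 19, 11404770 to 11427246), of the family of membrane-spanning 4-domain proteins, was at 2.19, 4.86 and 3.77 CPM in WT, 3.08, 3.62 and 2.80 in URE het, 7.10, 4.03 and 6.76 in Tet2 KO and 0.254, 0.401 and 0.0907 in the compound mutant. It fell 14.3-fold against WT (edgeR adjusted p = 0.00671). Its interaction value was -4.37 ± 0.66, with the smallest adjusted p of any gene (0.17). Rnase6, a secreted ribonuclease of phagocytes (chromosome 14, 51123908 to 51132187), was at 4.72, 6.55 and 6.83 CPM in WT, 2.93, 2.52 and 2.31 in URE het, 6.68, 4.79 and 4.94 in Tet2 KO and 0.127, 0.0573 and 0 in the compound mutant. The deletion alone stood lower in all 3 libraries without passing (log2 fold change -1.22 ± 0.58), and the compound mutant fell by 6.65 on the log2 scale (edgeR adjusted p = 0.00603). Dennd5b, an activator of Rab GTPases in membrane traffic (chromosome 6, 148988071 to 149101680), had the same shape, with 5.57 ± 1.37 CPM in WT, 2.53 ± 0.539 in URE het, 5.03 ± 1.44 in Tet2 KO and 0.159 ± 0.0471 in the compound mutant. It fell 34.9-fold (edgeR adjusted p = 0.00671). Of the 24 genes, Rnase6 and Dennd5b alone passed against WT in all 15 alternatives of that comparison.

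Some negative genes came down to single counts. Kcng1, a subunit that modifies potassium channels (chromosome 2, 168260117 to 168281736), ran from 2.40 to 8.78 CPM in the 9 other libraries and had 1 count in all 3 compound libraries together. That count lay 540-fold below the sum, with a 95% exact Poisson interval of 97.0 to 21300 that covers counting error only. Scin, which severs actin filaments, and Apob, the apolipoprotein of very-low-density lipoprotein, had 2 counts each in the compound libraries, 175-fold (48.4 to 1440) and 118-fold (32.7 to 975) below the sum. Scin ran from 2.16 to 5.50 CPM in the other 9 libraries and Apob from 0.726 to 8.32. Fitted values for such genes depend on the prior count. Xlr4a, an X-linked gene of lymphoid cells, was at 3.45 ± 0.788 CPM in WT, 4.16 ± 1.3 in URE het, 1.96 ± 0.813 in Tet2 KO and 0.381, 0.0573 and 0.0302 in the compound libraries. It fell 23.5-fold (edgeR adjusted p = 0.0114), and near-copies of it in the genome make its counts less certain.

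The other negative genes described here lay under the sum by smaller folds, and Pbk and Ccr2 remained well expressed in the compound mutant. Pbk, a kinase of dividing cells (chromosome 14, 65805837 to 65817822), was at 52.0 ± 12.2 CPM in WT, 60.4 ± 18.6 in URE het, 59.7 ± 4.66 in Tet2 KO and 25.7, 20.2 and 22.0 in the compound libraries, a fall of 2.3-fold (edgeR adjusted p = 0.036). Mpzl1, a surface receptor that binds the phosphatase SHP2, was at 2.93, 4.71 and 6.06 CPM in WT, 11.2, 9.50 and 6.21 in URE het, 4.39, 4.03 and 2.32 in Tet2 KO and 1.56, 1.09 and 1.24 in the compound mutant. Mpzl1 thus stood higher in every URE het library than in any WT library and lower in every compound library than in any other; it fell 3.52-fold against WT (edgeR adjusted p = 0.0214), and its interaction value was -2.44 ± 0.49. Ccr2, the chemokine receptor of inflammatory monocytes, averaged 62.2 ± 6.02 CPM in WT, 109 ± 39.7 in URE het, 103 ± 50.3 in Tet2 KO and 37.8 ± 18.0 in the compound mutant. Its interaction value of -2.25 ± 0.57 set a sum of 158 CPM against that level, while compound against WT did not pass (edgeR adjusted p = 0.343).

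Genes of antigen presentation by MHC class II stood below the sum as a group. Their products load peptides onto surface molecules of B cells, dendritic cells and monocytes, and Ciita is the activator of the family. All 10 tested members had negative interaction values, with a median of -3.35, against 0.03 over all genes, and 7 of 10 had an unadjusted p under 0.05 on the negative side, against 3.91% of all genes. Compound libraries lay below all 9 others for 8 of the 10, and 6 of 10 fell against WT in edgeR, against 2.07% of all genes. That count was 7 without compound replicate 1, where 1421 of 19868 genes tested were lower. It was 3 and 2 without WT replicates 1 and 3, and 0 without WT replicate 2 or compound replicates 2 or 3. Cd74, the invariant chain (chromosome 18, 60803848 to 60812652), was at 17.9, 25.5 and 37.3 CPM in WT, 21.7, 22.8 and 13.6 in URE het, 48.8, 8.38 and 17.3 in Tet2 KO and 0.465, 0.287 and 0.817 in the compound mutant, a fall of 51.0-fold (edgeR adjusted p = 0.0169). H2-Aa, the alpha chain of I-A (chromosome 17, 34282744 to 34287823), was at 16.4, 19.2 and 23.4 CPM in WT, 27.1, 16.6 and 9.96 in URE het, 44.8, 6.19 and 14.4 in Tet2 KO and 0.381, 0 and 0.272 in the compound mutant, a fall of 93.9-fold (edgeR adjusted p = 0.0257). H2-DMb1 did not share this: it was at 5.71, 9.03 and 12.2 CPM in the compound libraries and at 5.57 to 9.08 in WT, with an interaction value of -0.46. The summed level of the list was 87.9 to 126 CPM in WT, 62.4 to 107 in URE het, 57.6 to 182 in Tet2 KO and 15.8 to 22.9 in the compound mutant.

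**Figure D4:**
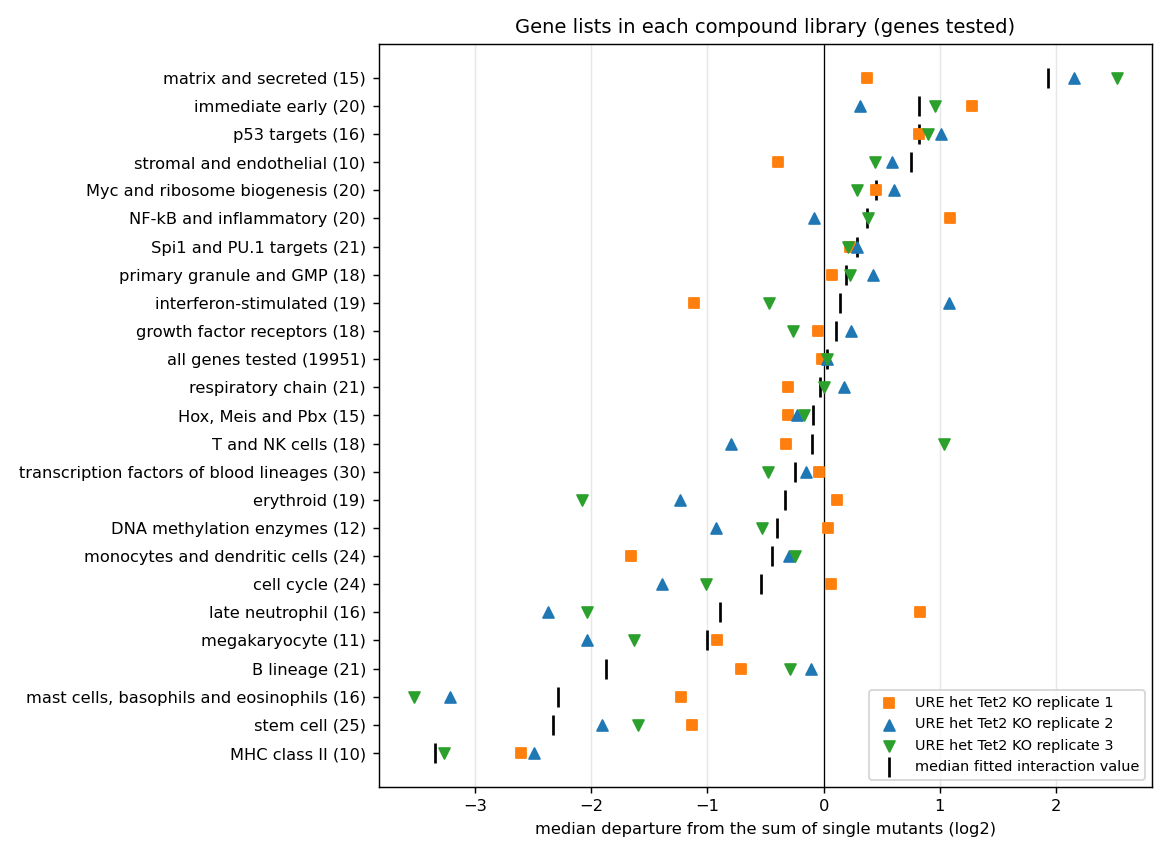
Median departure from the sum of single mutants in log2 units (horizontal axis) for 24 gene lists and all tested genes (number of genes tested in parentheses), for compound replicate 1 (squares), 2 (triangles up) and 3 (triangles down), with a bar for the median fitted interaction value. MHC class II lies below -2 in all 3 libraries, while late neutrophil genes lie at 0.83 in replicate 1 and below -2 in replicates 2 and 3.

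Lists of other lineages were also on the negative side. Genes of mast cells, basophils and eosinophils had median departures of -1.23, -3.22 and -3.53 in compound replicates 1, 2 and 3. For MHC class II genes these were more even, at -2.61, -2.49 and -3.27. Of 16 tested genes of mast cells, basophils and eosinophils, all 16 were negative (median -2.29), 6 with an unadjusted p under 0.05 (3.91% of all genes), and 6 fell against WT in edgeR (2.07% of all genes). Of these mast cell, basophil and eosinophil genes 12 fell without compound replicate 1, where 1421 of 19868 genes tested were lower. It was 2 and 3 without WT replicates 1 and 3, and 0 without WT replicate 2 or compound replicates 2 or 3. Epx, eosinophil peroxidase, was at 26.1, 5.97 and 4.58 CPM in WT, 7.99, 33.5 and 4.04 in URE het, 3.67, 1.23 and 3.32 in Tet2 KO and 0.0846, 0.0287 and 0.0302 in the compound mutant, and its interaction value was -6.14 ± 1.63. The whole list summed to 482 to 698 CPM in WT, 341 to 539 in URE het, 361 to 430 in Tet2 KO and 171 to 186 in the compound mutant. The list includes Kit, the sorting marker described above, which made up most of the sum in the compound mutant. Of 25 stem cell genes, 17 were negative and 9 of them had an unadjusted p under 0.05 (3.91% of all genes). On the positive side 2 did (4.2% of all genes). The median was -2.33, or -1.96 with genes at 0 counts set to their bound. Against WT 7 fell (2.07% of all genes) and 1 rose (1.32% of all genes) in edgeR. Without compound replicate 1, 12 fell and 2 rose, against 1421 lower and 1100 higher of 19868 genes tested. Without WT replicates 1 or 3, 1 fell, and without WT replicate 2 or compound replicates 2 or 3, 0 fell. In those fits 0 rose. Angpt1, a ligand of the Tie2 receptor, was at 66.5, 95.3 and 132 CPM in WT, 99.5, 60.3 and 51.2 in URE het, 64.1, 90.1 and 104 in Tet2 KO and 4.52, 4.99 and 0.393 in the compound mutant; it fell 29.7-fold (edgeR adjusted p = 0.0289). Meis1, a homeodomain cofactor of stem cells, was at 2.66, 0.115 and 0.121 CPM in the compound mutant and at 12.9 to 53.8 in the other 9 libraries. Trpc6, a cation channel used as a stem cell marker, had 0 counts in all 3 compound libraries and 1.16 to 2.47 CPM in the other 9, which puts it at least 54.1-fold lower than the sum (3 counts over the group). Cdkn1c, a brake on the cell cycle in stem cells, went the other way: it was at 2.03, 3.99 and 5.05 CPM in the compound libraries and at most 1.11 in the others, a rise of 7.15-fold (edgeR adjusted p = 0.0267).

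B lineage genes were mostly lower in the compound mutant than in WT, with a median log2 fold change of -3.91. Of 21 tested, 13 fell (2.07% of all genes) and 1 rose (1.32% of all genes) in edgeR. Without compound replicate 1 it was 16 and 2, against 1421 lower and 1100 higher of 19868 genes tested. Without WT replicates 1, 2 or 3 or compound replicates 2 or 3 it was 6, 2, 8, 2 or 2 that fell and 0 that rose. For the interaction, 13 were negative and 5 of those had an unadjusted p under 0.05 (3.91% of all genes). On the positive side 2 did (4.2% of all genes). The median was -1.87, or -0.78 with genes at 0 counts set to their bound. Cd22, an inhibitory receptor of B cells (chromosome 7, 30865402 to 30880342), was at 1.85, 1.57 and 1.75 CPM in WT, 0.696, 0.698 and 1.36 in URE het, 2.33, 1.46 and 1.32 in Tet2 KO and 0.0423, 0.0287 and 0.0605 in the compound mutant. It fell 36.2-fold against WT (edgeR adjusted p = 0.00421), and its interaction value was -4.26 ± 0.72. Dntt, which adds bases at the joints of antigen receptor genes, averaged 35.4 ± 7.20 CPM in WT, 26.0 ± 12.3 in URE het, 12.7 ± 5.95 in Tet2 KO and 0.148 ± 0.129 in the compound mutant. Rag1, part of the recombinase of those genes, had 0 counts in the compound libraries, at least 11.6-fold lower than the sum. Igll1, a part of the pre-B cell receptor, was at 0.254, 241 and 124 CPM in the compound libraries and at most 0.764 in the others, a rise against WT (edgeR adjusted p = 0.0364) that compound replicate 1 did not share. The list summed to 88.4 to 103 CPM in WT, 47.8 to 76.1 in URE het, 42.6 to 61.1 in Tet2 KO and 14.7 to 266 in the compound mutant, the upper figure being set by Igll1. Summed T and NK cell genes were at 164 to 192 CPM in WT and 84.4 to 149 in the compound mutant, and their median interaction value was -0.10. The part of these other cell types in the interaction values was not tested.

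Matrix and secreted genes were the list furthest on the positive side, with a median of 1.93 over 15 tested genes. At an unadjusted p under 0.05, 7 had a positive and 1 a negative value, against 4.2% and 3.91% of all genes. The median departures were 0.37, 2.16 and 2.53 in compound replicates 1, 2 and 3. Against WT 4 rose (1.32% of all genes) and 1 fell (2.07% of all genes) in edgeR. Leaving out compound replicate 1 gave 8 that rose and 3 that fell, against 1100 higher and 1421 lower of 19868 genes tested. Without WT replicates 1 or 3 or compound replicate 3, 1 rose, and without WT replicate 2 or compound replicate 2, 0 rose. In those fits 0 fell. Svep1, a large adhesion protein of the matrix, was at 22.2, 368 and 75.4 CPM in the compound libraries and at most 0.664 in the other 9. It rose 554-fold against WT (edgeR adjusted p = 0.0205), with an interaction value of 9.27 ± 2.32. Fn1, fibronectin, was at 52.7, 2830 and 1230 CPM in the compound libraries and at 15.9 to 63.2 in the others, and Thbs4, a thrombospondin, at 4.06, 577 and 182 CPM and at 0.0882 to 4.58. For Fn1 and Thbs4 compound replicate 1 lay within the range of the other genotypes, and for Svep1 it did not. Bgn, the proteoglycan biglycan, had the opposite sign, at 0.115 to 0.181 CPM in the compound libraries and 0.866 to 4.10 in the others. Stromal and endothelial markers summed to 99.7 to 144 CPM in WT and 104 to 323 in the compound mutant. Of 10 tested, 7 had positive and 3 negative interaction values, with a median of 0.75. At an unadjusted p under 0.05 there were 0 positive and 1 negative. The collagen gene Col1a1 was at 1.56, 0.258 and 0.212 CPM in the compound libraries against 0.235 to 4.0 in WT. The part of stromal and endothelial cells in the matrix genes was not tested.

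Genes that PU.1 is known to regulate did not depart in one direction. Of 21 tested, 13 were positive and 8 negative, and the median was 0.29. An unadjusted p under 0.05 was reached by 2 positive genes (9.52%), Csf2rb and Csf2rb2, and 1 negative gene (4.76%), Lyz2. Over all genes the shares were 4.2% positive and 3.91% negative. Lyz2, lysozyme, was at 4720, 8340 and 5860 CPM in WT, 8500, 10200 and 5000 in URE het, 9750, 8000 and 3330 in Tet2 KO and 1290, 2560 and 4230 in the compound mutant, with an interaction value of -1.71 ± 0.71 (edgeR adjusted p = 0.559). Itgam, the integrin chain CD11b, stood at 290, 15.1 and 38.8 CPM in the compound libraries against 221 to 1750 in the others, and its value of -2.70 ± 1.49 had an unadjusted p of 0.0907. Csf3r, the receptor for G-CSF, was at 187, 236 and 261 CPM in the compound libraries, within the 124 to 262 of the others. Among 18 growth factor receptors, the beta chains were the 2 (11.1%) with a positive value at an unadjusted p under 0.05, and 2 (11.1%) were negative. Myc and ribosome biogenesis genes were positive in 16 of 20, with a median of 0.45. At an unadjusted p under 0.05, 4 (20%) were positive and 1 (5%) was negative, the negative one being Mycn at -5.67 ± 1.72. Of 16 p53 targets, 13 were positive (median 0.82), led by Pmaip1, which promotes cell death, at 2.20 ± 0.71. Respiratory chain genes (21 tested, median -0.03) and interferon-stimulated genes (19 tested, median 0.14) had 0 members with an unadjusted p under 0.05 in either direction. In the other lists the median lay between -1.0, for megakaryocyte genes, and 0.82, for immediate early genes.

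Compound replicate 1 stood apart from replicates 2 and 3. Over tested genes the chi-square per degree of freedom between replicate 1 and the others was 357 and 336, against 74.6 between replicates 2 and 3. In the other 3 groups it was 102 to 176 between libraries numbered 1 to 7 and 8 to 17. Pairs within either range gave 49.1 to 56. Of 12317 genes whose mean reached 1 log2 CPM, 224 stood over 2 log2 units above the sum and 281 below it in replicate 1. These numbers were 349 and 642 in replicate 2 and 299 and 455 in replicate 3. Gene counts of the 12 libraries ran from 23.5 to 38.3 M. Replicate 1 has a title number in the range 1 to 7 and the others in 8 to 17; WT has 2 libraries in the first range and each other group has 1. The labels do not call these ranges a batch, and with 1 library for most groups in the first range no test was made there.

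Several gene groups departed mainly in replicates 2 and 3. Matrix and secreted genes, given above, were among them. Mast cell, basophil and eosinophil genes departed further in replicates 2 and 3 than in replicate 1. Late neutrophil genes had median departures of 0.83, -2.37 and -2.04 in compound replicates 1, 2 and 3. S100a9, a calcium-binding protein abundant in neutrophils, was at 8600, 15800 and 19100 CPM in WT, 17200, 38000 and 17900 in URE het, 13100, 22600 and 11200 in Tet2 KO and 10900, 1530 and 4250 in the compound mutant. Compound replicate 1 lay within the WT range, and the others lay below all 9. Cell cycle genes were negative in 23 of 24, with median departures of 0.06, -1.39 and -1.01; Bub1, a kinase of the spindle checkpoint, was at 71.1, 17.7 and 21.8 CPM in the compound libraries and 83.8 to 126 in the others. Erythroid genes had median departures of 0.12, -1.24 and -2.08. Car2, a carbonic anhydrase of red cell precursors, was at 4.82, 0.774 and 0.575 CPM in the compound libraries and 31.4 to 61.5 in the others, below all 9 in each. For MHC class II genes the medians were -2.61, -2.49 and -3.27, with no such split.

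Within the libraries numbered 8 to 17 alone, 723 genes passed the interaction test in edgeR, 301 positive and 422 negative, of 20578 tested. WT has 1 library there, so its spread is taken from the other groups. Of the 24 genes, 16 passed there, and all 24 had the same sign in both ranges. Over the 5 fits that call more than 1 gene, 2012 genes were called at least once, 20 of them with a sign that differed between those fits. Those called in all 5 were Ecm1 on the positive side and Kcng1, Cd22, Rnase6 and Ms4a4c on the negative side. A term for the title range in the fit of all 17 libraries gave 0 calls, with 2460 genes at an unadjusted p under 0.05.

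Many of the negative calls within 8 to 17 lay together on chromosome 2, in a stretch from 60 to 160 Mb that was chosen after its values were seen. It holds 496 genes whose mean reached 1 log2 CPM, 88 of the 422 negative calls and 0 of the 301 positive calls. The median departure of its genes was 0.02 in compound replicate 1, -0.84 in replicate 2 and -0.90 in replicate 3, while the medians of the other chromosomes ran from -0.16 to 0.11. Spi1 and Bub1 lie in this stretch. DNA was not measured, so copy number was not tested. Of the 24 genes, Slc2a6 and Kcng1 are on chromosome 2, both outside the stretch.

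The same interaction can be formed with loss of 1 copy of Tet2, from 3 libraries with that loss alone (Tet2 het, labelled Normal) and 2 with the URE deletion as well (URE het Tet2 het, labelled AML). It shares the WT and URE het libraries with the contrast above, so the 2 interactions are compared only through their difference, in which those libraries cancel. In edgeR 0 genes passed the test of that difference (921 at an unadjusted p under 0.05, smallest adjusted p 0.179), and DESeq2 called 10. Without URE het Tet2 het replicate 1 there were 101 calls, without its replicate 2 there were 7, and without compound replicate 1 there were 2.

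**Figure D5:**
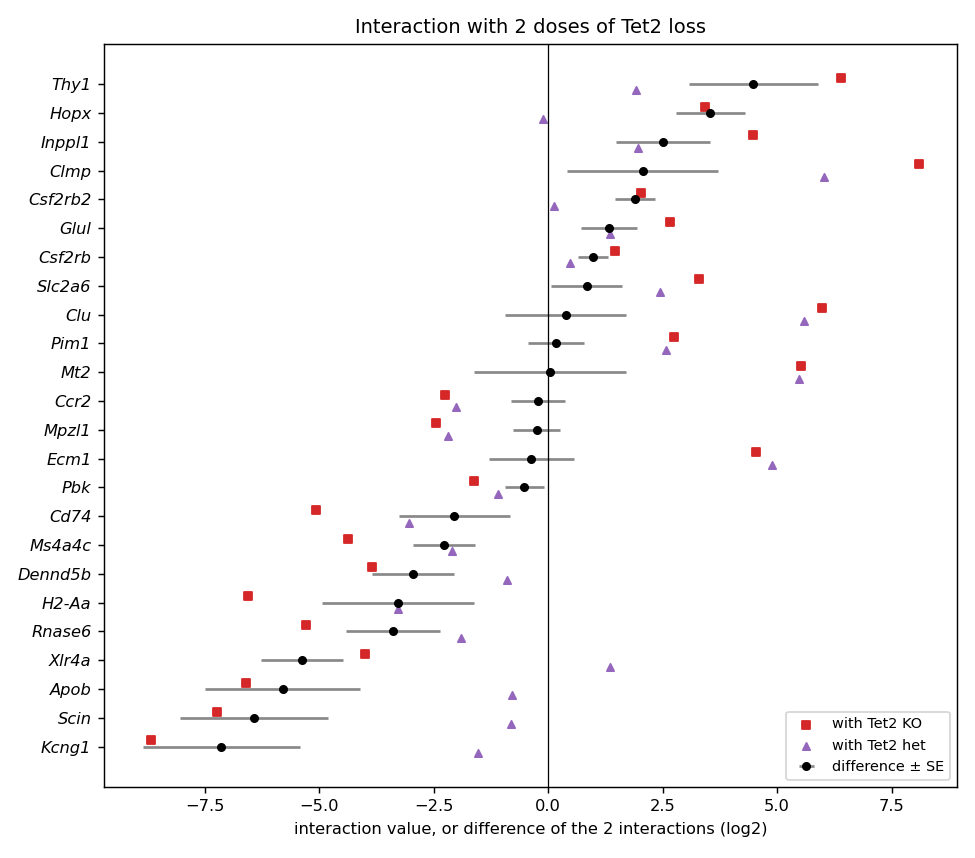
Interaction value of the URE deletion with Tet2 KO (squares) and with Tet2 het (triangles) for 24 genes, and the difference of both (black, ± SE), in log2 units on the horizontal axis. Ecm1, Mt2, Pim1 and Clu have similar values at both doses. Kcng1, Scin and Xlr4a lie far below 0 with Tet2 KO and between -1.53 and 1.35 with Tet2 het. The Tet2 het values of Ecm1, Mt2, Clu, Kcng1 and Scin each join 2 URE het Tet2 het libraries that differ widely.

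Cd22 and Xlr4a had the smallest p-values of that difference among the genes named here. Cd22 was at 1.98 and 3.42 CPM in the 2 URE het Tet2 het libraries and 2.18, 2.78 and 5.32 in Tet2 het, with interaction values of 0.56 ± 0.63 there and -4.26 ± 0.72 with Tet2 KO; the difference was -4.82 ± 0.73 (edgeR adjusted p = 0.179). Xlr4a was at 7.93 and 5.80 CPM in URE het Tet2 het and 1.64, 3.29 and 1.72 in Tet2 het, and the difference was -5.37 ± 0.90 (edgeR adjusted p = 0.271). In both genes every URE het Tet2 het library stood far above every compound library with Tet2 KO. Hopx was at 2.99 and 1.66 CPM in URE het Tet2 het, within its range in WT and URE het or just below, and the difference was 3.54 ± 0.75 (edgeR adjusted p = 1). For Csf2rb2 the difference was 1.90 ± 0.44 and for Csf2rb it was 0.98 ± 0.33, neither passing. Ecm1 was at 55.4 and 3.63 CPM in URE het Tet2 het, both above the 3 Tet2 het libraries (1.06 to 1.84), with an interaction value of 4.89 ± 0.95 there and a difference of -0.37 ± 0.93. For Pim1, at 50.7 and 73.8 CPM in URE het Tet2 het, the difference was 0.17 ± 0.62, and for Myc it was -0.07 ± 0.41. The URE het Tet2 het libraries differed widely from each other: Dntt was at 0 and 26.9 CPM, H2-Aa at 0.065 and 10.8 and Svep1 at 167 and 0.488. Kcng1 was at 0.0325 and 4.12 CPM and Scin at 0 and 1.91, so replicate 1 was about as low as the compound libraries. Clu was at 46.2 and 1.38 CPM and Mt2 at 8.59 and 1.21. For these genes the interaction value with Tet2 het thus rests largely on 1 library.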

How the data were processed

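Gene-level RNA counts of 17 libraries of sorted mouse bone marrow progenitors were used, 12 of them in the contrast. The authors deposited raw counts, not normalized, in 1 table; per the submitters' processing notes reads were aligned with STAR to GRCm38. The version, annotation, counting tool and strand setting are not given in the sources used here, so overlapping, antisense and near-identical genes have less certain counts. Of 96004 rows, 47643 named an Ensembl gene without an enh suffix and were used; 47224 matched the GENCODE vM21 annotation for symbols and coordinates, which may not be the authors' release.

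Genes passing filterByExpr (minimum count 10, minimum total 15) were fitted with edgeR 4.0.16 (R 4.3.3; TMM, robust quasi-likelihood F test, 2-sided), with 1 mean for each of 6 genotypes over all 17 libraries, so that groups of 2 or 3 shared 1 estimate of spread. P-values were adjusted by Benjamini-Hochberg over all genes of each contrast at 0.05. An SE is the value over the square root of F. Departures per library are log2 CPM (prior count 2) minus the sum of group means. The rule named Spi1 and Tet2, the 12 genes of smallest p in each direction where fewer than 12 passed (mean of at least 1 log2 CPM; predicted, clone-named, immunoglobulin, T cell receptor, pseudogene, Xist and Y-linked genes left out), and up to 3 members of each of 24 lists by smallest p; Kit, Csf3r, Col1a1, Fn1, Bgn, Itgam, H2-DMb1, Ciita and Igll1 were added after their values were seen. The members and lists were chosen with earlier results of these data known. Fits were tested on simulated counts with the same spread for every gene and no divergent library. This does not show how the tools behave on these data. Alternatives were DESeq2 1.42.0, limma 3.58.1 voom, other scalings and filters, leaving out each library, a sex term, and title numbers; those of the comparisons with single groups were added after the data were seen. No pair of replicates agreed within sampling noise. Depth limits the rarest genes, and intervals of counts cover counting error only. Some single markers are not reported here.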

Additional observations from a re-analysis of the deposited data

How the results depend on the processing

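Calls of the interaction with Tet2 KO numbered 0 with DESeq2 size factors, without robust spread, with the range term and with the sex term. They numbered 1 without a filter, 32 in the 4 groups alone, 151 with DESeq2, 723 within 8 to 17, 1782 with voom and 0 to 279 without 1 library. The sex term leaves out 2 libraries with neither Xist nor Y-linked RNA, compound replicate 2 and URE het Tet2 het replicate 1. By that RNA WT replicates 1 and 2, Tet2 KO replicate 2 and compound replicates 1 and 3 were female. WT replicate 3, Tet2 KO replicates 1 and 3 and all URE het libraries were male. In that fit, sex and the loss of compound replicate 2 cannot be told apart. Calls of the interaction with Tet2 het numbered 103 with DESeq2 and 0 to 284 without 1 library, and calls of the difference 10 and 0 to 101.

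Against WT (676), calls were 100 in both groups alone, 1864 with DESeq2, 5245 with voom, 1133 with the range term, 2789 within 8 to 17, 448 with the sex term and 16 to 2521 without 1 library. Against Tet2 KO (195) they were 23, 1212, 3649, 415, 3512, 119 and 3 to 1799. Against URE het (71) they were 15, 1013, 3385, 258, 3752, 27 and 0 to 1789.

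Of 1448 values of 69 named genes, 1287 kept sign and side, 159 came to pass and 2 reversed: Spi1 (-2.49 to 0.03 without 1 library, 0.03 without Tet2 KO replicate 1) and Cd3e (7.28; -0.71 to 8.12 without 1 library, -0.71 without compound replicate 3). The causes were not tested. No paired analysis was possible because the title numbers form 1 running series and pair no libraries. Genes under a few counts a library are limited by depth.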
